A study of Homo sapiens with 16 samples.

Results

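miR-361 is a human miRNA whose hairpin gives rise to a mature strand from each arm, miR-361-5p and miR-361-3p. Both strands were examined in OE19, a human esophageal adenocarcinoma cell line, on 8 arrays of untreated cells (control) and 8 arrays of cells exposed to 100 μM telmisartan, an angiotensin II type 1 receptor blocker, for 48 h. The arrays of each group are numbered 1 to 8. The members were the probes named hsa-miR-361-3p and hsa-miR-361-5p, 2 of the 2565 miRNA probes on the array, and both belonged to the 382 probes that were detected on all 16 arrays and have a normalized value. The pair was chosen with its response to telmisartan already known, so that the difference between control and telmisartan arrays is given as a description, without a test. All cells were of 1 line and carried no stated genetic change, and no source states that each array had its own culture. The p-values below therefore measure only the spread between these arrays, which may be technical.

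A primary miRNA transcript is cut by Drosha and then by Dicer to a short duplex. An Argonaute protein keeps 1 strand as the guide, and the other strand, the passenger, is usually degraded. Because both strands come from the same precursor in equal number, the proportion of the 3p to the 5p strand depends on their loading and decay. The guide pairs with target mRNAs through its seed, bases 2 to 8 from its 5′ end, and different strands of a hairpin therefore have different targets. miR-361-5p is known to repress VEGFA. The MIR361 hairpin lies within CHM, the gene of Rab escort protein 1, loss of which causes the retinal disease choroideremia.

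The sequences show how unlike the strands are at the end that selects targets. They are the RefSeq sequences on GRCh38.p14, written 5′ to 3′. Capitals mark the seed in each mature strand, and both mature strands in the hairpin.
hsa-miR-361-5p: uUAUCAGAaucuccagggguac
hsa-miR-361-3p: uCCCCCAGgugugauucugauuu
MIR361 hairpin: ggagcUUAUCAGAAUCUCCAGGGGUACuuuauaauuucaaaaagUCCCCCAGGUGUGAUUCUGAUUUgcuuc
The hairpin occupies chrX:85903636-85903707 on the minus strand. The 5p strand is at chrX:85903681-85903702 and the 3p strand is at chrX:85903641-85903663. CHM spans chrX:85861180-86047558 on the same strand and was the sole gene of the table that overlaps the hairpin. The table gives no exons, so an exonic or intronic position was not determined here.

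The strands have a similar overall GC content, 11 of 23 bases in miR-361-3p and 10 of 22 in miR-361-5p, but 6 of the 7 seed bases of the 3p strand are G or C against 2 of 7 in the 5p strand. The 3p seed includes a run of 5 C. In the minimum free energy fold of the 72-base hairpin (-31.4 kcal/mol, 25 base pairs), 16 bases of each strand pair with the other strand, and 17 bases lie between them. None of the other mature miRNAs among the 2370 in the table had the seed of either strand. For both strands, the closest other mature miRNA was 8 edits away, so that neither probe has a near-identical counterpart in this table.

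The arrays differed in how many probes rose above their blank spots, from 454 to 1621 on control arrays and from 458 to 1885 on telmisartan arrays. The level used here is the deposited normalized intensity, which was quantile normalized over the 382 shared probes and has the same median, 37.7, on every array. The labels name no batch, but control arrays 1 to 4 and 5 to 8 differed at 72.0% of the 382 probes (limma, adjusted p under 0.05). Values are therefore also given within these sets of arrays. The sets were chosen with earlier results of these data known, so tests between the control sets are no independent evidence that they differ. Epithelial miRNAs (miR-200a-3p, miR-200b-3p, miR-200c-3p, miR-141-3p and miR-429) and columnar gut miRNAs (miR-192-5p, miR-194-5p, miR-215-5p and miR-375) were detected on all 16 arrays. Of the markers of other cell types, miR-126-3p (endothelium), miR-9-5p and miR-128-3p (neural) and miR-203a-3p (squamous epithelium) were also detected on all 16, and the erythroid miR-451a on 7 control and 7 telmisartan arrays. The other 13 markers with a probe, of squamous epithelium, muscle, blood, mesenchyme and neurons, were each detected on 0 to 5 arrays of a group. Their part in the miR-361 values was not tested.

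miR-361-3p, the weaker of the signals, was higher in telmisartan-treated cells on every array. In control arrays 1 to 8 its normalized intensity was 9.36, 7.44, 8.15, 8.66, 7.70, 7.02, 8.79 and 6.83. In telmisartan arrays 1 to 8 it was 15.99, 15.3, 11.97, 17.0, 13.9, 13.0, 16.1 and 10.6. The lowest telmisartan array (array 8) lay above the highest control array (array 1), so the groups did not overlap. A rise without overlap was found for 2.36% of all 382 probes. On the log2 scale the mean level was 2.99 ± 0.16 (SD, n = 8) in control and 3.81 ± 0.24 (SD, n = 8) in telmisartan arrays, a difference of 0.82 (SE 0.10) or 1.77-fold.

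On normalized values the rise of miR-361-3p was 1.78-fold in arrays 1 to 4 and 1.75-fold in arrays 5 to 8. Between arrays of the same number it ranged from 1.47- to 2.06-fold and was upward in 8 of 8. As the groups did not overlap, any other matching of the arrays would also give 8 of 8. The test of the difference between the sets, which did not enter the choice of the members, gave -0.02 on the log2 scale (SE 0.19, adjusted p = 0.927, limma over 382 probes). It was -0.40 without scaling and -1.22 with the authors' global normalization (limma adjusted p = 0.338 and 0.474). Before normalization, on background-subtracted intensities, the rise was 2.25-fold in arrays 1 to 4 and 1.70-fold in arrays 5 to 8, and with the authors' global normalization it was 3.12- and 1.34-fold. These values include a shift of whole arrays. The median of the 382 probes was 1.33- and 0.970-fold in the same sets without scaling, and 1.84- and 0.762-fold with global normalization. By the size of its change miR-361-3p stood in position 5 of the 382 probes, from the largest rise. By its mean level it moved from position 371 in control to position 295 in telmisartan arrays, so it stayed among the dimmer of the shared probes.

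**Figure D1:**
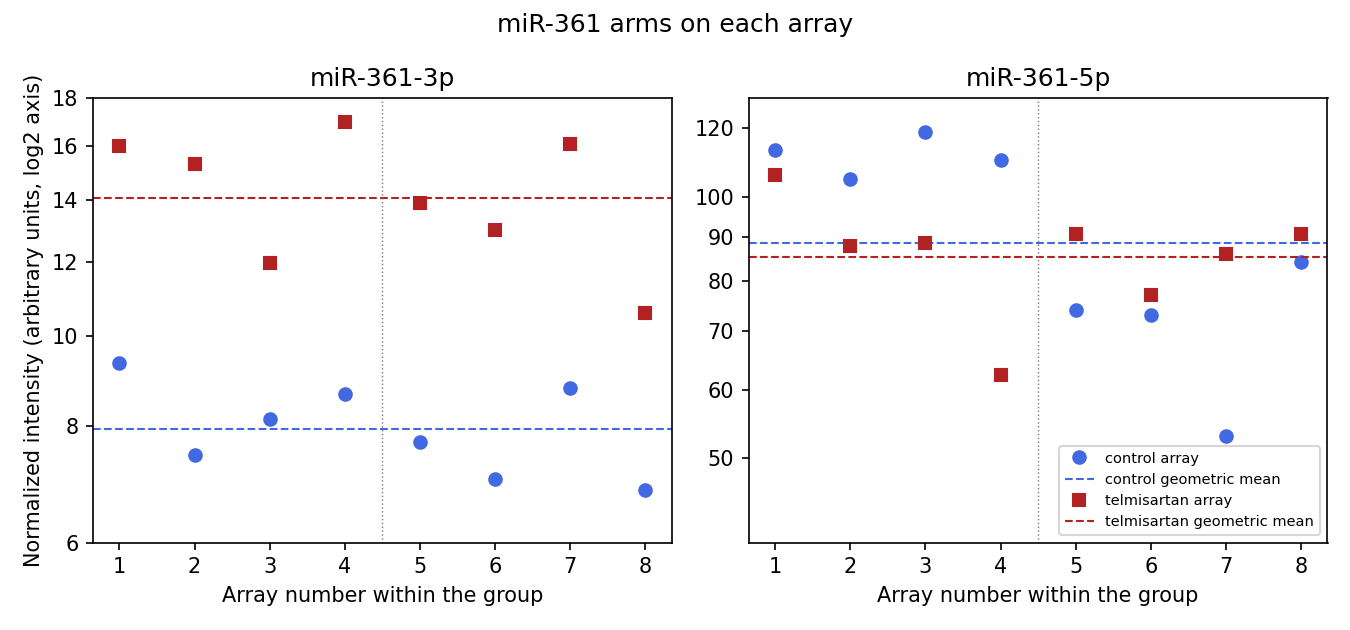
Normalized intensity (arbitrary units, log2 axis) of miR-361-3p (left) and miR-361-5p (right) on each of the 8 control and 8 telmisartan arrays, against the array number, with the geometric mean of each group as a dashed line and a dotted line between arrays 4 and 5. All miR-361-3p values of telmisartan arrays (10.6 to 17.0) lie above those of control arrays (6.83 to 9.36), whereas the miR-361-5p values of the groups overlap.

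miR-361-5p, the stronger signal, did not follow its partner. In control arrays 1 to 8 its normalized intensity was 113, 105, 119, 110, 74.2, 73.1, 53.1 and 84.1. In telmisartan arrays 1 to 8 it was 106, 87.8, 88.6, 62.3, 90.7, 77.1, 86.0 and 90.7. The groups overlapped throughout: 0 telmisartan arrays lay above the highest control array and 0 lay below the lowest. The mean log2 level was 6.47 ± 0.41 (SD, n = 8) in control and 6.41 ± 0.22 (SD, n = 8) in telmisartan arrays, a difference of -0.05 (SE 0.16) or 0.964-fold. Its mean level was in position 127 of 382 in control and in position 131 in telmisartan arrays.

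The near-zero mean of miR-361-5p joined opposite differences in the sets of arrays. It was 0.758-fold in arrays 1 to 4, with 3 of 4 telmisartan arrays below all controls of that set, and 1.23-fold in arrays 5 to 8 (0.966- and 1.31-fold without scaling). Control arrays 1 to 4 ranged from 105 to 119 and control arrays 5 to 8 from 53.1 to 84.1, without overlap, while telmisartan arrays of the sets overlapped (62.3 to 106 and 77.1 to 90.7). Control arrays 5 to 8 were lower than arrays 1 to 4 by 0.67 on the log2 scale (SE 0.15, limma adjusted p = 0.0013), where 35.1% of all probes were called lower and 31.2% were lower without overlap. For miR-361-3p the same difference was -0.15 (SE 0.14, limma adjusted p = 0.335) and the sets overlapped.

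The interaction of treatment and array set was 0.69 for miR-361-5p (SE 0.22, limma adjusted p = 0.0274), in a test that called 35.3% of all probes and 16.5% in this direction. The call was lost without control array 7 (0.56, adjusted p = 0.0523), without telmisartan array 5 (0.67, adjusted p = 0.0505) or without telmisartan array 8 (0.67, adjusted p = 0.0502). It also depended on the scaling between arrays. Without any scaling the interaction was 0.43 (limma adjusted p = 0.304) and the difference between the control sets of miR-361-5p was -0.15 (limma adjusted p = 0.569), whereas miR-361-3p was then higher in control arrays 5 to 8 by 0.58 (limma adjusted p = 0.0229). The median of the 382 probes was itself higher by 0.74 in control arrays 5 to 8 on that unscaled log2 scale. After quantile normalization over the probes detected on each array, and after the authors' global normalization, the control difference (0.75 and 0.41) and the interaction of miR-361-5p (-0.68 and -0.38) changed sign. With these scalings the median of the 382 probes was itself higher by 1.56 and 1.31 in control arrays 5 to 8. The telmisartan difference of that median was 0.97 and 0.88 in arrays 1 to 4, and -0.52 and -0.39 in arrays 5 to 8. The sources do not say what separates the sets of arrays, and their origin was not tested.

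The raw miR-361-3p signal was close to the blank spots. It was between 22.1 and 40.5 (median 31.7) on control arrays and between 29.9 and 47.3 (median 39.5) on telmisartan arrays, where the mean of the blank spots was 14.9 to 33.6. The signal exceeded the blank mean by 2.83 to 14.5 blank SDs (median 5.22) on control arrays and by 5.14 to 28.8 (median 14.1) on telmisartan arrays. Control array 4 was the nearest to the detection level of 2 SD. Background-subtracted, miR-361-3p was between 5.35 and 11.3 in control and between 9.85 and 19.8 in telmisartan arrays. These unscaled values overlapped, with 6 of 8 telmisartan arrays above all controls.

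The height of the background enters such a dim value directly. With the background of every array raised by 1 SD of its blank spots, the normalized log2 rise of miR-361-3p was 0.94, and with the background lowered by 1 SD it was 0.73. In both cases 8 of 8 telmisartan arrays lay above all controls, but this was fixed in advance. Such a shift keeps the order of probes on an array, and quantile normalization sets each value by that order. With an offset of 50 added to all intensities in a normexp background correction, the rise was 0.15. Again 8 of 8 lay above, fixed by the ranks over all probes (375 to 449 in control, 272 to 345 in telmisartan arrays). The offset exceeds the background-subtracted miR-361-3p values (5.35 to 19.8), so it shrinks their log2 differences by arithmetic. miR-361-5p was far above the blank spots everywhere, by 44.2 to 126 blank SDs in control and 38.6 to 150 in telmisartan arrays.

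**Figure D2:**
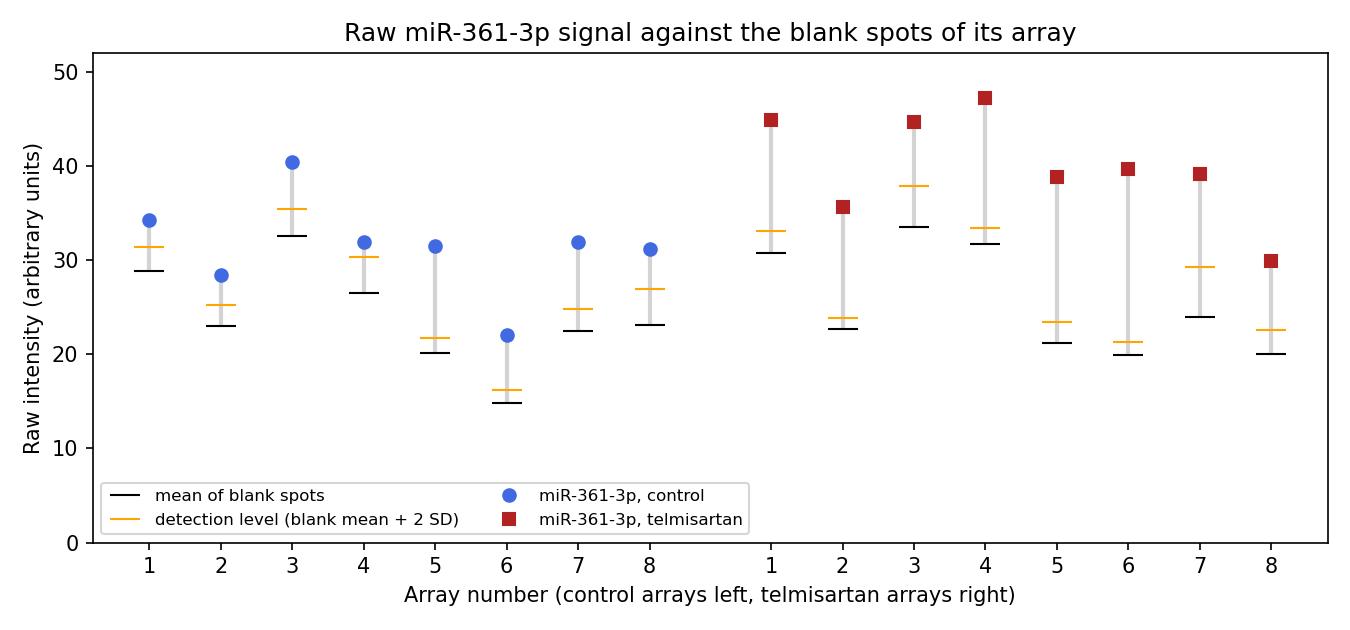
Raw intensity (arbitrary units) of miR-361-3p on each array (circles, control; squares, telmisartan), with the mean of the blank spots of that array (black bar) and the detection level, 2 SD above it (orange bar). The raw signal is above the detection level on all 16 arrays, and the nearest is control array 4, at 2.83 blank SDs above the blank mean.

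The arm ratio, the 3p value over the 5p value of the same array, is free of any factor that multiplies a whole array. The probes may bind their strands with unequal efficiency, so the ratio is no count of molecules, and only its differences between arrays are read. In control arrays 1 to 8 the 3p signal was 8.26%, 7.10%, 6.87%, 7.86%, 10.4%, 9.60%, 16.5% and 8.12% of the 5p signal. In telmisartan arrays 1 to 8 it was 15.1%, 17.4%, 13.5%, 27.2%, 15.3%, 16.8%, 18.7% and 11.7%. Control array 7 stood apart from the other controls and above 4 telmisartan arrays, and telmisartan array 4 was the highest of all.

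The mean log2 ratio of 3p to 5p was -3.48 ± 0.41 (SD, n = 8) in control and -2.60 ± 0.36 (SD, n = 8) in telmisartan arrays, a difference of 0.88 (SE 0.19) or 1.83-fold. The ratio was higher in telmisartan for 8 of 8 array numbers, by 1.13- to 3.46-fold, although 4 of 8 telmisartan arrays lay above all controls. The labels do not state this matching. As control array 7 exceeded some telmisartan arrays, other matchings could give fewer than 8. Without control array 7 the difference was 1.00. In arrays 1 to 4 the ratio rose 2.35-fold with 4 of 4 telmisartan arrays above all controls, and in arrays 5 to 8 it was 1.43-fold with 2 of 4 above. The background-subtracted intensities gave a mean difference of 0.80 (SE 0.21) or 1.74-fold, with 2.33-fold in arrays 1 to 4 and 1.30-fold in arrays 5 to 8. With normexp and an offset of 50 the mean difference was 0.19, with 1 of 8 telmisartan arrays above all controls, and the direction turned in arrays 5 to 8 (1.32-fold in arrays 1 to 4 and 0.983-fold in arrays 5 to 8). By arithmetic, the offset shrinks log2 differences of the dimmer 3p strand more than those of the 5p strand. The difference of the ratio's change between the sets was not tested.

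**Figure D3:**
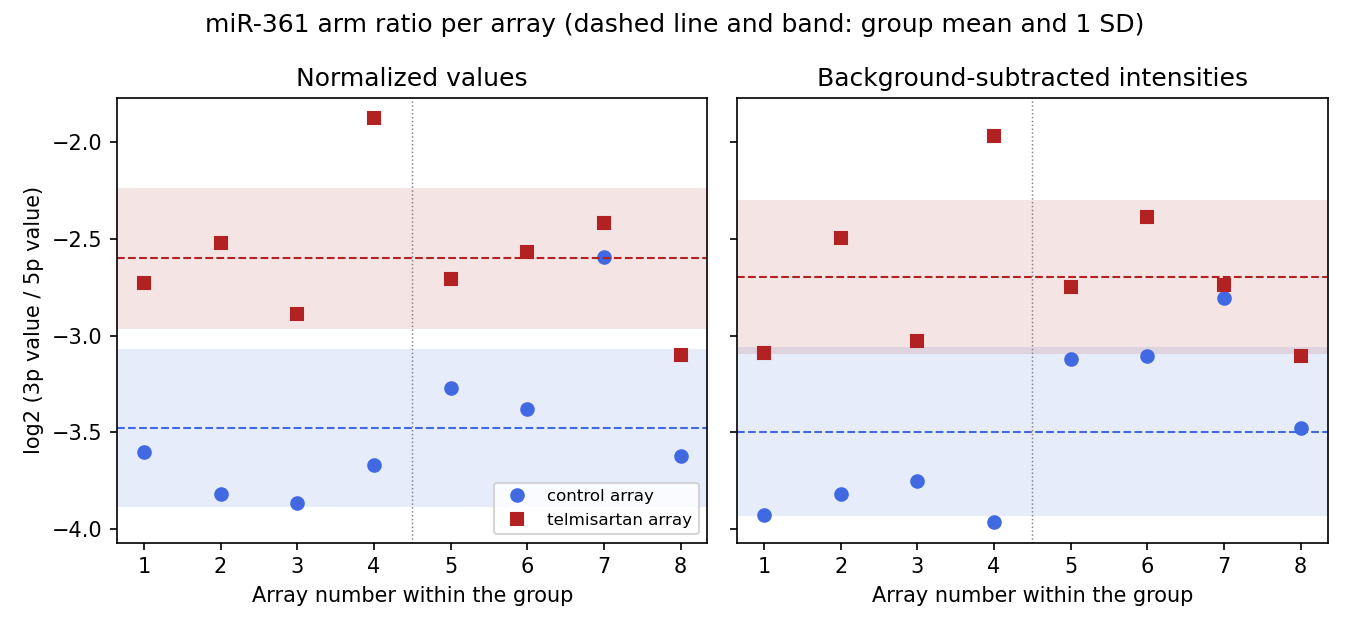
Log2 of the miR-361-3p value over the miR-361-5p value on each array, from normalized values (left) and from background-subtracted intensities (right), against the array number, with the group mean (dashed line) and 1 SD (band). On the left, the telmisartan array exceeds the control array of the same number in 8 of 8, a matching that the labels do not state. The groups overlap there because of control array 7 (-2.60).

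No joint rise and fall of the strands from array to array was detected. Over the 8 telmisartan arrays Pearson's r between their log2 levels was -0.25 (exact permutation p = 0.569, two-sided) and Spearman's rho was -0.40 (exact permutation p = 0.333, two-sided). Leaving out the 2 arrays whose miR-361-5p levels lay farthest from its median gave r = -0.16. The control arrays fall into separate sets for miR-361-5p, so no correlation was computed over them alone. Over all 16 arrays, with the mean of each group and set removed, r was -0.37, given as a description. These were 2 relations of 1 pair and were not adjusted for each other.

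The miRNAs whose pattern over the 16 arrays was most like that of each strand were different ones. For miR-361-3p they were miR-210-3p (Pearson's r = 0.916 over 16 arrays), a miRNA known to be induced in hypoxia, miR-193b-3p (0.893), miR-24-3p (0.860), miR-30d-5p (0.858) and let-7d-5p (0.855), a member of the let-7 family. All of these had higher means in telmisartan arrays, from 1.27-fold for miR-24-3p to 5.26-fold for miR-210-3p. Once the mean of each group and set was removed, their r with miR-361-3p was 0.12 to 0.26, so the likeness lay mostly in the difference between groups.

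For miR-361-5p the most alike were miR-203a-3p (r = 0.926), abundant in squamous epithelium, miR-339-5p (0.909), miR-96-5p (0.908), of the miR-183 cluster, miR-15a-5p (0.877), which is known to repress BCL2, and miR-423-3p (0.877). Their fold differences between groups were 0.801 to 1.05, and all were lower in control arrays 5 to 8 than in arrays 1 to 4, by 0.66 to 1.26 on the log2 scale. Within groups and sets their r with miR-361-5p was still 0.73 to 0.84. The other strand ranked far down in each list, with r = -0.08 at position 206 of 379 for miR-361-3p and at position 189 for miR-361-5p. These correlations share the arrays and the normalization and are a description.

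Among the 33 hairpins with both strands in the normalized table, miR-361 had the largest difference between the changes of its strands, in either direction. The 3p change minus the 5p change had a median of -0.11 over the 33 hairpins and a median size of 0.24, and was positive in 9 and negative in 24. After miR-361 (0.88), the most positive were miR-455 (0.65), in which the 3p strand was 1.37-fold and the 5p strand 0.870-fold, and miR-18a (0.61), encoded in the MIR17HG cluster, in which both strands were lower. The most negative were miR-125a (-0.81), miR-181a (-0.78) and miR-6765 (-0.76), in which the 5p strand had the higher change. miR-125a was the single hairpin whose ratios did not overlap between the groups. The miR-361 difference was 1.23 in arrays 1 to 4 alone and 0.518 in arrays 5 to 8 alone. In arrays 5 to 8 it was not the largest. Larger in size there were, among others, miR-125a (-0.737), miR-455 (0.712) and miR-18a (0.521). The control arrays' SD of the miR-361 ratio, 0.41, was close to the median over hairpins, 0.39. As miR-361 was picked from this contrast, its position among hairpins carries no test.

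**Figure D4:**
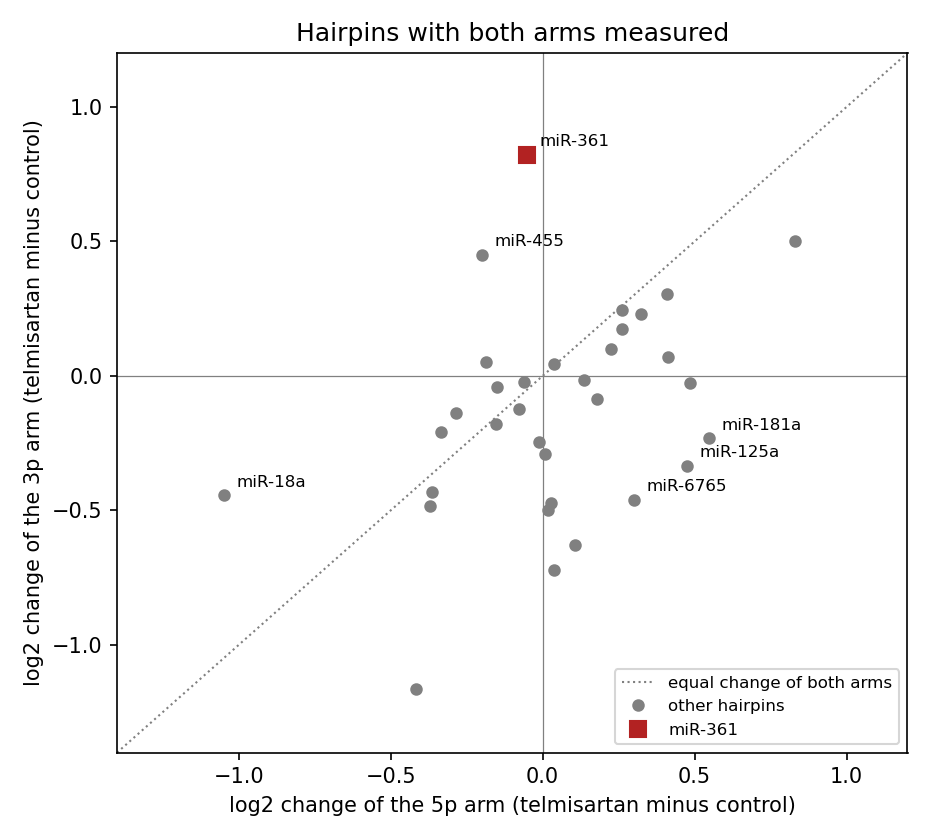
Log2 change, telmisartan minus control, of the 3p strand (vertical axis) against that of the 5p strand (horizontal axis) for 33 hairpins, with miR-361 as a red square and the dotted line marking equal change. miR-361 lies farthest from the line, at 0.82 for 3p and -0.05 for 5p.

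The neighborhood of the hairpin was considered last. Of the other miRNA probes encoded on chromosome X, 30 of 153 were in the normalized table. A probe was counted if any gene of its miRNA lies there. Some of these miRNAs also have a copy elsewhere, as the paper lists for miR-19b-3p, and their signal may come from it. By limma, 2 of the 30 rose, miR-222-3p (1.57-fold, adjusted p = 0.00222) and miR-320d (1.22-fold, adjusted p = 0.0296), where 9.69% of all 382 probes were called higher and 17.0% were called in either direction. A further 4 fell, miR-18b-5p, miR-19b-3p, miR-188-5p and miR-105-5p (0.480- to 0.803-fold), where 7.33% of all probes were called lower. The median log2 change of the 30 was -0.05, and that of all probes was -0.01. The nearest other miRNA gene of the table, MIR1321, is 67778 bases away, and its probe was detected on 1 control and 0 telmisartan arrays. Among the 96 probes with the lowest control levels, which include miR-361-3p, 8 were called higher and 5 lower with a median change of -0.04. The normalization gives every array the same distribution over the 382 probes, so a shift of all probes together cannot show. It does not fix the median change of a subset. The CHM transcript was not measured on these arrays.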

How the data were processed

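miRNA levels of 16 single-color arrays were analysed, 8 of control and 8 of telmisartan-treated OE19 cells, with groups and array numbers taken from the sample titles. The authors subtracted the mean of the blank spots (highest and lowest 5% removed) from each raw intensity and kept probes more than 2 SD above it. The deposited normalized intensity of the 382 probes detected on all 16 arrays was rebuilt by quantile normalization of these values to a relative difference of 4.88e-10, and log2 of it was used. The deposited globally normalized intensity was used as an alternative.

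Fits over all 382 probes used lmFit and eBayes of limma 3.58.1 (R 4.3.3) with Benjamini-Hochberg adjustment and a threshold of 0.05, and were tested on simulated data. The simulated control arrays 1 to 4 and 5 to 8 did not differ, unlike the real ones. The simulation therefore did not check the fits under such a difference. The members, the lists and the sets of arrays were chosen with earlier results of these data known. Named miRNAs were the members, the 5 most correlated with each, any sharing a seed, the 3 hairpins at either end of the arm difference, and cell type markers. Those encoded on chromosome X and past the threshold, and MIR1321, were named after their values were seen. Hairpins were folded with RNAfold 2.7.2, and distances between sequences were computed with edlib. Of 2588 miRNA names on the array, 2281 were in the RefSeq table. Among arrays of the same number, deviations from the group mean correlated at 0.15 to 0.86 over probes. These deviations include the difference between the sets of arrays, and for 2 of 8 controls the best partner had the same number. The labels state no pairing, and the main fits used none. The array number entered as a block in an alternative fit only, and differences between arrays of the same number are a description. The number of arrays limits the precision.

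Alternatives were other scalings, normexp background correction, arithmetic means or medians, other tests, the array number or set as a block, each set by itself and leave-one-out fits. Other scalings in the tests between sets, the authors' global normalization and the shifted background were chosen after seeing the data.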

Additional observations from a re-analysis of the deposited data

Results flagged for a closer look

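Control array 7 had a log2 ratio of miR-361-3p to miR-361-5p of -2.60, far from the other 7 control arrays, which lay between -3.86 and -3.27. Chance flags about 1 in 20 groups by this measure. Its normalized miR-361-5p value, 53.1, was the lowest of all 16 arrays and its normalized miR-361-3p value, 8.79, was among the higher controls. In background-subtracted intensities its ratio was -2.81, still the highest control but closer to the next ones, arrays 6 (-3.11) and 5 (-3.12). Its miR-361-5p value, 66.6, was then not the lowest, with telmisartan array 4 at 60.8 and control array 6 at 62.1.

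The treatment difference of miR-361-5p within arrays 5 to 8 (0.29 on the log2 scale) exceeded that in arrays 1 to 4 (-0.40) by 0.69 (limma adjusted p = 0.0274). The same test called 35.3% of all 382 probes. The call was lost on leaving out control array 7, telmisartan array 5 or telmisartan array 8. Its sign changed with quantile normalization over detected probes (-0.68) and with the authors' global normalization (-0.38). With these scalings the telmisartan difference of the median of the 382 probes was 0.97 and 0.88 in arrays 1 to 4. In arrays 5 to 8 it was -0.52 and -0.39.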

How the results depend on the processing

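The normalized log2 rise of miR-361-3p (0.82) was 1.18 after quantile normalization over each array's detected probes, 1.03 with the authors' global normalization and 0.15 with normexp and an offset of 50, and 0.78 to 0.88 with any array left out. The miR-361-5p difference was -0.40 in arrays 1 to 4 alone, 0.29 in arrays 5 to 8 alone and -0.16 to 0.01 with any array left out. It was 0.17 without scaling, 0.12 with quantile normalization over detected probes and 0.23 with global normalization. The arm ratio difference (0.88) was 0.19 with normexp, whose offset shrinks the 3p differences most, and 0.77 to 1.00 with any array left out. The number of miRNAs past the threshold (65) fell to 31 with median scaling. By limma with quantile normalization over detected probes it was 0 of 646 (7 at an unadjusted p under 0.05), where the median change of all probes was 0.24. It was 51 to 70 with any array left out, 97 with the array set as a block and 75 with the replicate block. As the groups are of equal size, the replicate block cannot change the miR-361-3p rise (0.82). It changed the SE alone, from 0.10 to 0.07, by a pairing that the labels do not state. The interaction of miR-361-3p was 0.050 with median scaling (limma adjusted p = 0.845) and -0.13 to 0.083 with any array left out, but -0.40 without scaling, -1.46 with quantile normalization over detected probes and -1.22 with global normalization (limma adjusted p = 0.338, 0.518 and 0.474). That of miR-361-5p was 0.54 to 0.80 with any array left out, 0.43 without scaling, -0.68 with quantile normalization over detected probes and -0.38 with global normalization. The control set difference was -0.22 to -0.10 for miR-361-3p and -0.76 to -0.54 for miR-361-5p with any array left out. For miR-361-3p it was 0.58, 1.38 and 1.15, and for miR-361-5p -0.15, 0.75 and 0.41, without scaling, with quantile normalization over detected probes and with global normalization. The cause of these differences was not tested. The nearness of miR-361-3p to the blank spots limits its precision.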
